A study of Homo sapiens with 6 samples.

Results

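The alkaline phosphatase family was examined in Hep G2, a human liver tumor cell line. Its 4 human genes, ALPL, ALPP, ALPPL2 and ALPI, were found by name among the 23524 genes of the expression table, and all 4 were present. They were chosen from the measured FPKM values of the same comparison described here, because ALPP was near 0 in every control library and present in every library with EFTUD2. The levels of the 4 genes and their differences between groups are therefore descriptions, and no test is given for them. Cells infected with an empty lentiviral vector served as control and were compared with cells infected with a lentivirus carrying EFTUD2, a GTPase of the spliceosome. Each group had 3 libraries, and both groups were made as stable lines under puromycin. The labels give no promoter for the vector, and they do not say whether a line was 1 clone or whether the libraries came from separate cultures, so p-values measure only the spread between these libraries.

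Alkaline phosphatases are enzymes on the outer face of the cell membrane that split phosphate from many small molecules and proteins. They hold zinc and magnesium in the active site and are tied to the membrane by a glycosylphosphatidylinositol (GPI) anchor. ALPL encodes the tissue-nonspecific form of liver, bone and kidney, which breaks down pyrophosphate and pyridoxal phosphate and is needed for bone to mineralize. ALPP encodes the placental form, made in the syncytiotrophoblast and also known from tumors outside the placenta. ALPPL2, now named ALPG, encodes the germ cell form, and ALPI encodes the intestinal form of the brush border, which removes phosphate from bacterial lipopolysaccharide.

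ALPP, ALPPL2 and ALPI lie in a row on the long arm of chromosome 2, all on the plus strand, while ALPL lies on chromosome 1. In the GENCODE 29 models of GRCh38, the longest protein-coding transcript of ALPP spans chr2:232378534-232382889, that of ALPPL2 chr2:232406843-232410714 and that of ALPI chr2:232456123-232460032. Each of these has 11 exons. The ALPL transcript spans chr1:21509372-21578412 with 12 exons. The coding sequences of ALPP and ALPPL2 were identical at 97.8% of 1596 aligned bases. ALPI matched ALPP at 89.7% and ALPPL2 at 89.5%, whereas ALPL matched the other 3 genes at only 65.0 to 66.2%.

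The likeness matters for the values below, since a short read from one gene can fit its neighbor. A stretch of 60 coding bases in exon 9 was the same in all 3 genes of chromosome 2, at chr2:232380900-232380959 in ALPP, chr2:232408981-232409040 in ALPPL2 and chr2:232458277-232458336 in ALPI. It is shown because a read lying wholly inside it cannot be given to any one of them.
ALPP, ALPPL2 and ALPI: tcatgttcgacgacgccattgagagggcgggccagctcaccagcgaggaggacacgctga

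In exon 10, another stretch of 60 coding bases told ALPI apart from the other 2 but not ALPP from ALPPL2. It was picked as the stretch of that length where the 3 genes differed most, so it is not typical of the coding sequence. It lies at chr2:232381292-232381351 in ALPP, chr2:232409373-232409432 in ALPPL2 and chr2:232458673-232458732 in ALPI. Capitals mark the 20 positions that were not the same in all 3 genes, and ALPP and ALPPL2 differed at 0 of them.
ALPP: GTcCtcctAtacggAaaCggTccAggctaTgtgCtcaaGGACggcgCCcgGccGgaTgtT
ALPPL2: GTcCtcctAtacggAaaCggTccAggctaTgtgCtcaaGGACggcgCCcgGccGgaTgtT
ALPI: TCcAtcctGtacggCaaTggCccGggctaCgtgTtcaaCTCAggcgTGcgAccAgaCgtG

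Over the whole transcripts, 24.5% of the 50-base windows of ALPP were found letter for letter in ALPPL2, and 29.3% of those of ALPPL2 in ALPP. With 100-base windows the shares were 13.2% and 15.8%. Of the 50-base windows of ALPI, 1.52% were found in ALPP, and 0 of its 100-base windows were. ALPL shared 0 windows of either length with the other genes. The read length and the rule for dividing shared reads are not given in the sources used here, so the split of signal between ALPP and ALPPL2 is uncertain, that of ALPI less so, and that of ALPL not touched by these windows.

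EFTUD2, the gene carried by the vector, gave 41.14, 54.35 and 46.34 FPKM for control replicates 1 to 3, while EFTUD2 replicates 1 to 3 gave 106.62, 102.9 and 109.48 FPKM. FPKM counts fragments per transcript length and library size. Every EFTUD2 library lay above every control, with a difference of 1.16 on the log2(FPKM + 1) scale (standard error 0.12, adjusted p = 0.131 from limma). The FPKM values of a library summed to between 404342 and 434542, and the number of reads behind them is unknown. EFTUD2 replicate 3 stood apart within its group: over genes, its log2 values differed from those of replicates 1 and 2 with an SD of 0.51 and 0.60, against 0.23 between replicates 1 and 2 and 0.21 to 0.36 among the controls. Of the 17222 genes tested, 0% passed an adjusted p under 0.05 in limma. Without adjustment, 4.4% were higher and 7.9% lower at a p under 0.05. Higher genes made up 35.7% of these, or 57% after median-of-ratios scaling and 44.3% after quantile normalization.

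Placental ALPP had the highest level of the family in EFTUD2-overexpressing cells. It gave 0.03, 0.02 and 0.03 FPKM for control replicates 1 to 3, while EFTUD2 replicates 1 to 3 gave 9.53, 28.66 and 0.85 FPKM. All 3 EFTUD2 libraries were above all 3 controls, and the lowest of them was 28.3 times the highest control. The group means were 0.0267 ± 0.00577 and 13.0 ± 14.2 FPKM (SD, n = 3 each), so the SD of the EFTUD2 group was larger than its mean. The ratio of the means was 488, and rounding of the deposited values to 2 decimals alone allows 411 to 601. On the log2(FPKM + 1) scale, which understates changes of low genes, the difference was 3.02 with a standard error of 0.90. It was 9th among 17222 genes when these are ordered from the largest increase.

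The place of ALPP among all genes of a library changed with its level. In the controls only 2.08 to 2.28% of the tested genes lay below it. In EFTUD2 replicates 1, 2 and 3 the share below it was 62.3, 84.2 and 26.4%. ALPP was thus above most genes in replicates 1 and 2 and in the lower part of the range in replicate 3.

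The EFTUD2 libraries differed widely among themselves in ALPP. Replicate 1 had 0.333 times the level of replicate 2, and replicate 3 had 0.0297 times that level. The largest ALPP level was 33.7 times the smallest, whereas for EFTUD2 itself this ratio between the same libraries was 1.06. When EFTUD2 replicate 2 was left out, the difference of ALPP was 2.10 on the log2(FPKM + 1) scale, and without EFTUD2 replicate 3 it was 4.11. These are RNA values of whole cultures, in which fewer cells with a transcript and less transcript per cell cannot be told apart.

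Germ cell ALPPL2 had the same order of libraries at far lower levels. It had levels of 0.05, 0.02 and 0.02 FPKM across control replicates 1 to 3, while EFTUD2 replicates 1 to 3 had 0.24, 0.88 and 0.1 FPKM. The groups did not overlap, but the lowest EFTUD2 library was only 2 times the highest control. The means were 0.0300 ± 0.0173 and 0.407 ± 0.416 FPKM (SD, n = 3 each), a ratio of 13.6 with 11.5 to 16.5 allowed by rounding. The difference was 0.41 on the log2(FPKM + 1) scale (standard error 0.19), with 0.18 without EFTUD2 replicate 2. In the EFTUD2 libraries its level was 2.52, 3.07 and 11.8% of that of ALPP, and reads from the windows it shares with ALPP cannot be told apart from its own.

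Intestinal ALPI was second in level to ALPP in each EFTUD2 library. It had levels of 0.06, 0.01 and 0.06 FPKM across control replicates 1 to 3, while EFTUD2 replicates 1 to 3 had 0.45, 2.02 and 0.19 FPKM. All 3 EFTUD2 libraries again lay above the controls, with 3.17 times the highest control in the lowest of them. The means were 0.0433 ± 0.0289 and 0.887 ± 0.99 FPKM (SD, n = 3 each), and their ratio was 20.5 (18.2 to 23.3 by rounding). The difference was 0.73 on the log2(FPKM + 1) scale (standard error 0.32), with 0.33 without EFTUD2 replicate 2. The level of ALPI was 4.72, 7.05 and 22.4% of that of ALPP, so the lead of ALPP was smallest in replicate 3.

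ALPL, the form that normal liver makes, stayed low in every library. It had levels of 0.06, 0.14 and 0.05 FPKM across control replicates 1 to 3, while EFTUD2 replicates 1 to 3 had 0.15, 0.31 and 0.07 FPKM. Here the groups overlapped, since control replicate 2 was above EFTUD2 replicate 3 and just under replicate 1. The means were 0.0833 ± 0.0493 and 0.177 ± 0.122 FPKM (SD, n = 3 each), and the difference was 0.12 on the log2(FPKM + 1) scale with a standard error of 0.10. EFTUD2 replicate 2 had the highest level in ALPL too, and replicate 3 had 0.226 times that level. Without EFTUD2 replicate 2 the difference was 0.04, and without replicate 3 it was 0.18.

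**Figure D1:**
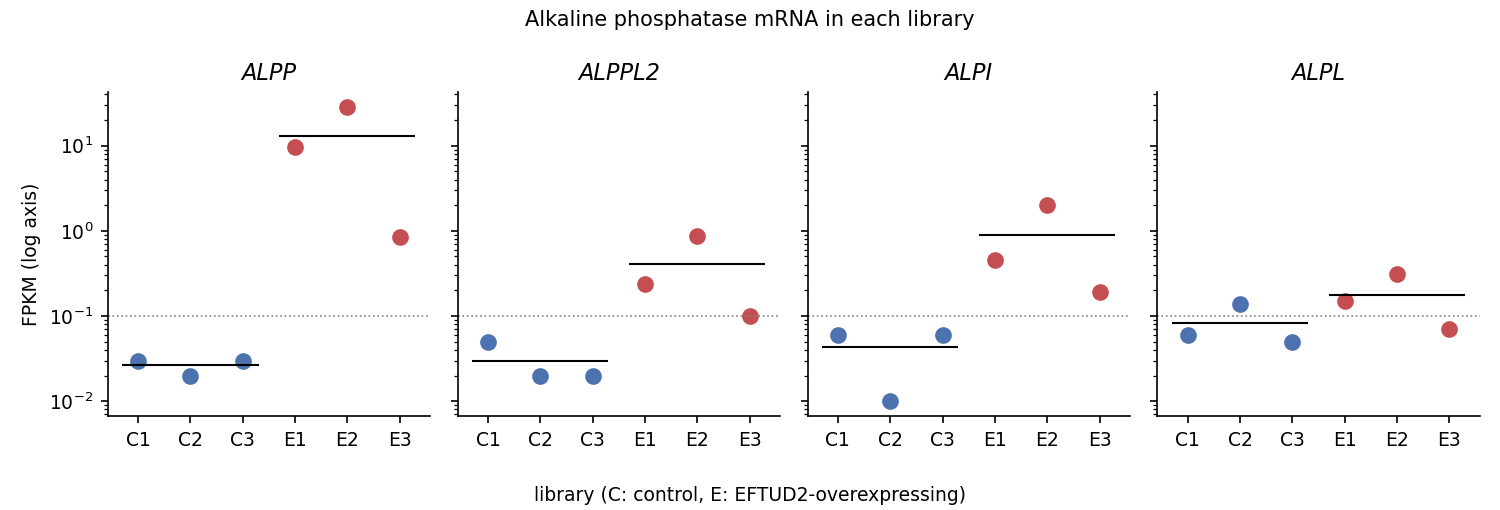
FPKM (log axis) of the 4 alkaline phosphatase genes in each of the 3 control (C) and 3 EFTUD2 (E) libraries. Points are single libraries, horizontal bars are group means and the dotted line is 0.1 FPKM, the mean level a gene needed to be tested. ALPP, ALPPL2 and ALPI do not overlap between groups, ALPL does, and EFTUD2 replicate 2 is the highest library for all 4 genes.

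All 4 genes averaged 0.1 FPKM or more over the libraries and so entered the fit, but each did so only through the EFTUD2 libraries, since their control means were all below that level. For 3 of the 4 genes the groups did not overlap, and each of these was higher with EFTUD2. Over all genes tested, 7.92% did not overlap and were higher and 19.4% did not overlap and were lower. Nothing is read from this, since the same comparison chose the genes. Apart from ALPL in control replicate 2, at 0.14 FPKM, the control values of 0.01 to 0.06 FPKM are only a few rounding steps above 0.

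Within the EFTUD2 group the order of levels was the same in each library, from ALPP through ALPI and ALPPL2 to ALPL. Across libraries the neighbors in this order were not separated, since ALPP in replicate 3, at 0.85 FPKM, lay below ALPI in replicate 2, at 2.02 FPKM. ALPI and ALPPL2, and likewise ALPPL2 and ALPL, also overlapped in range. In the controls no order held. ALPL was the highest member in control replicate 2, level with ALPI in replicate 1 and just under it in replicate 3.

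The sum over the family showed how far its makeup moved. Together the 4 genes came to 0.2, 0.190 and 0.160 FPKM across control replicates 1 to 3, while the sums of EFTUD2 replicates 1 to 3 were 10.4, 31.9 and 1.21 FPKM. ALPP made up 15.0, 10.5 and 18.8% of this sum in the controls and 91.9, 89.9 and 70.2% in the EFTUD2 libraries. ALPL made up 30, 73.7 and 31.2% in the controls and 1.45, 0.973 and 5.79% in the EFTUD2 libraries. In replicate 3, ALPI with 15.7% and ALPPL2 with 8.26% held larger shares than in replicates 1 and 2, where they held 2.31 to 6.34%.

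**Figure D2:**
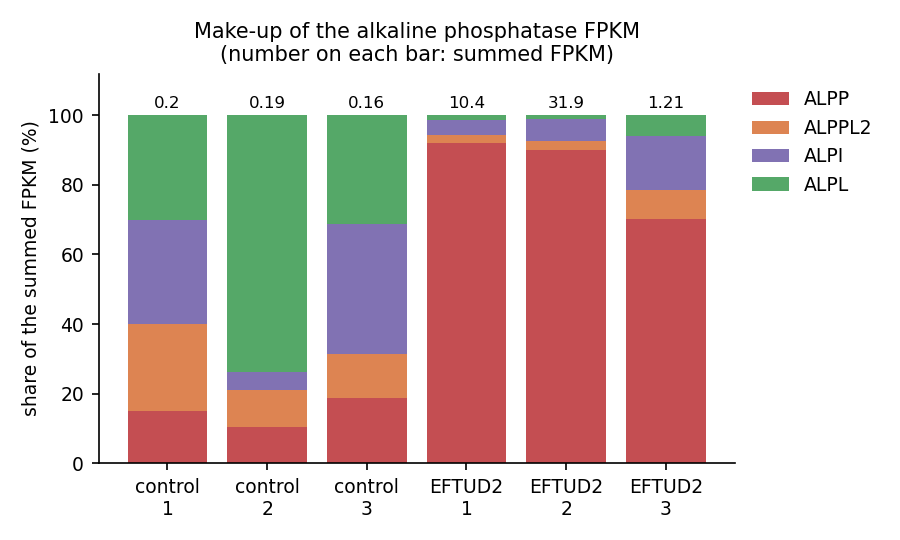
Share of each gene in the summed FPKM of the 4 alkaline phosphatases, in percent, with 1 stacked bar per library and the sum in FPKM above it. ALPP fills 70.2 to 91.9% of the bar in the EFTUD2 libraries and 10.5 to 18.8% in the controls, where the whole sum is at most 0.2 FPKM.

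The level of ALPP was next compared with other genes that were near 0 in the controls. Of all genes, 90 were at 0.1 FPKM or less in every control and at a mean of at least 1 FPKM with EFTUD2, and ALPP was the only alkaline phosphatase among them. It ranked 2nd of these 90 by its mean in EFTUD2-overexpressing cells. The median ratio of replicate 3 to replicate 2 over the 90 genes was 0.0380 (quartiles 0.0277 and 0.0606), beside 0.0297 for ALPP, and that of replicate 1 to replicate 2 was 0.404 (0.358 and 0.455), beside 0.333.

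The genes most like ALPP were found by Pearson's correlation of log2(FPKM + 1) over the 6 libraries, which fall into 2 groups. This measure is a description, as the points share the contrast that chose ALPP. PRSS21, which encodes testisin, a GPI-anchored serine protease of testis, came first with r = 0.9998. It had levels of 0.06, 0.05 and 0 FPKM across control replicates 1 to 3, while EFTUD2 replicates 1 to 3 had 4.79, 11.69 and 0.63 FPKM, the same order of libraries as ALPP. DUSP23, a phosphatase of the dual-specificity family, had the same r, with 2.27, 4.63 and 0.34 FPKM in the EFTUD2 libraries. CD44, the hyaluronan receptor, TFAP2A, the transcription factor AP-2 alpha, and FHL1, a LIM domain protein, followed with r = 0.9994 each.

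TFAP2A is expressed in trophoblast and epidermis, and its EFTUD2 replicates 1 to 3 had 3.51, 8.93 and 0.48 FPKM against at most 0.03 FPKM in a control. The other genes among the 10 most like ALPP were PTGES (prostaglandin E synthase, r = 0.9991), COL4A2 (a chain of basement membrane collagen, 0.9989), GAL (the neuropeptide galanin, 0.9989), OSBPL5 (0.9988) and RPL39L (0.9987). Likeness of this kind was common, since 127 of the tested genes had r of at least 0.99 with ALPP and 711 had at least 0.9. With a pseudocount of 0.01 in place of 1, only 2 of these 10 genes were again among the 10 most like ALPP. ALPPL2 and ALPI each had r = 0.93 with ALPP, ALPL had 0.87 and EFTUD2 had 0.75.

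**Figure D3:**
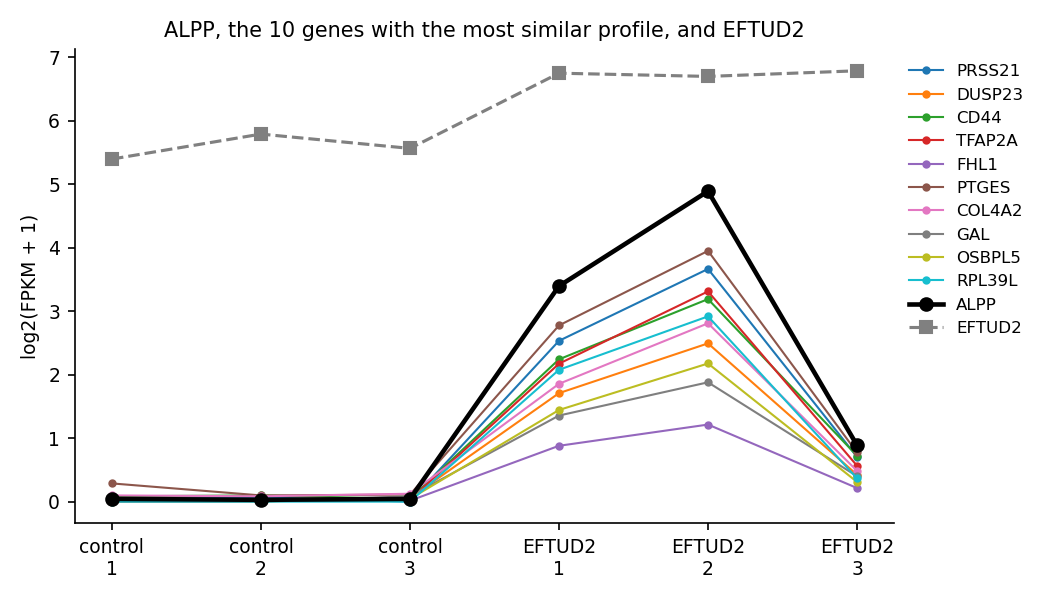
Values of log2(FPKM + 1) of ALPP (black), the 10 genes most like it (colors) and EFTUD2 (dashed grey) in the 3 control and 3 EFTUD2 libraries, with lines that only link the values of a gene. In the EFTUD2 group, ALPP and the 10 genes are highest in replicate 2 and lowest in replicate 3, whereas EFTUD2 is nearly level.

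ALPL had another set of nearest genes. SPAG5, which encodes astrin of the mitotic spindle, had r = 0.9942 and was well expressed in all libraries, at 12.93, 15.2 and 13.22 FPKM in the controls and 15.58, 19.17 and 13.65 FPKM with EFTUD2. MT1B, a metallothionein, had r = 0.9844. BGI_novel_G001526 and BGI_novel_G003485, which carry identifiers of the sequencing provider only, lay between these in likeness. With ALPL, 1 gene had r of at least 0.99 and 423 had at least 0.9. Among the controls ALPL was highest in replicate 2.

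The 3 genes of chromosome 2 share sequence just before their RefSeq start sites. In the 150 bases before the start, ALPP and ALPPL2 were identical at 92.0% of aligned bases, ALPP and ALPI at 81.6% and ALPPL2 and ALPI at 84.0%. Of 3 stretches of at least 10 bases common to all 3 genes, the longest had 15 bases, beginning 36 bases before the start in ALPP and ALPPL2 and 34 bases before it in ALPI. It was found in 3 of 35116 RefSeq promoter windows (GRCh38.p14), those of these 3 genes. It is shown in capitals with its flanks as the longest of the shared stretches, and all 3 genes are on the plus strand.
ALPP, chr2:232378707-232378736: acagttctCCCTGATTTAAACCCgggcagc
ALPPL2, chr2:232406800-232406829: acagttttCCCTGATTTAAACCCaggcagc
ALPI, chr2:232456111-232456140: aagtcctcCCCTGATTTAAACCCaggcagc

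The GENCODE 29 model of ALPP begins 217 bases before the RefSeq start, so that its site lies within that model's first exon. The ALPI model begins 30 bases before the RefSeq start, inside the shared stretch. Short motifs were searched on both strands of the windows, which run from 250 bases before to 50 after the start. TTTAAA, a variant of the TATA box that lies within the shared stretch, was in the windows of all 3 genes and in 12.2% of all windows. AGGTCA, which nuclear receptors bind, was also in all 3, against 13.8% of all windows. The classical TATAAA (11.5% of all windows), the AP-1 motif TGANTCA (7.71%), the STAT motif TTCNNNGAA (7.66%) and the TEAD motif GGAATG (14.0%) were not in these 3 windows. The GC box GGGCGG (45.0%) and the AP-2 motif GCCNNNGGC (23.2%) were in those of ALPPL2 and ALPI and not in that of ALPP. For ALPL, 1 of its 3 windows held TATAAA and 0 held TTTAAA.

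The tested genes around the ALPP cluster were below ALPP in EFTUD2 replicates 1 and 2, and PRSS56 came near the level of ALPPL2. In EFTUD2 replicate 3, where ALPP had 0.85 FPKM, DIS3L2 and CHRND were above ALPP. All of these tested neighbors were above ALPP in each control. Of 13 neighbors, 5 on either side and 3 pseudogenes between the members, 5 were in the table and 3 had enough signal for a test. DIS3L2, an exonuclease gene upstream of ALPP, had 8.77, 9.76 and 9.13 FPKM across the controls, against 7.68, 7.74 and 6.71 FPKM with EFTUD2, a difference of -0.29 (standard error 0.12, adjusted p = 0.402 from limma). PRSS56, a serine protease gene beyond ALPI, had 0.08, 0.04 and 0.12 FPKM across the controls, against 0.2, 0.72 and 0.14 FPKM with EFTUD2 (difference 0.30, standard error 0.16, adjusted p = 0.433 from limma). With a control mean of 0.0800 FPKM, PRSS56 entered the fit only through the EFTUD2 libraries, so nothing is read from its direction. Its EFTUD2 libraries lay above the controls, with the same order of libraries as ALPPL2, which had 0.24, 0.88 and 0.1 FPKM and a difference of 0.41. CHRND, a subunit of the muscle acetylcholine receptor, was highest in EFTUD2 replicate 3 instead, at 1.28 FPKM, and its groups overlapped (adjusted p = 0.600 from limma). ECEL1 was at 0.02 FPKM or less and CHRNG at 0.05 FPKM or less in every library.

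A long noncoding RNA of the RefSeq annotation, LOC124906123, at chr2:232370708-232379032, overlaps the start of ALPP and was not in the table. Whether reads were counted by strand is not given in the sources used here. Around ALPL, 4 of 10 neighbors were in the table and tested (NBPF3, RAP1GAP, USP48 and LDLRAD2). Of these 0 had an unadjusted p under 0.05 in limma. Around the ALPP cluster 1 of the 3 tested did, DIS3L2, which was lower with EFTUD2. Over all genes tested, 4.4% were higher and 7.9% lower at that threshold. So few neighbors do not allow the loci to be compared.

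**Figure D4:**
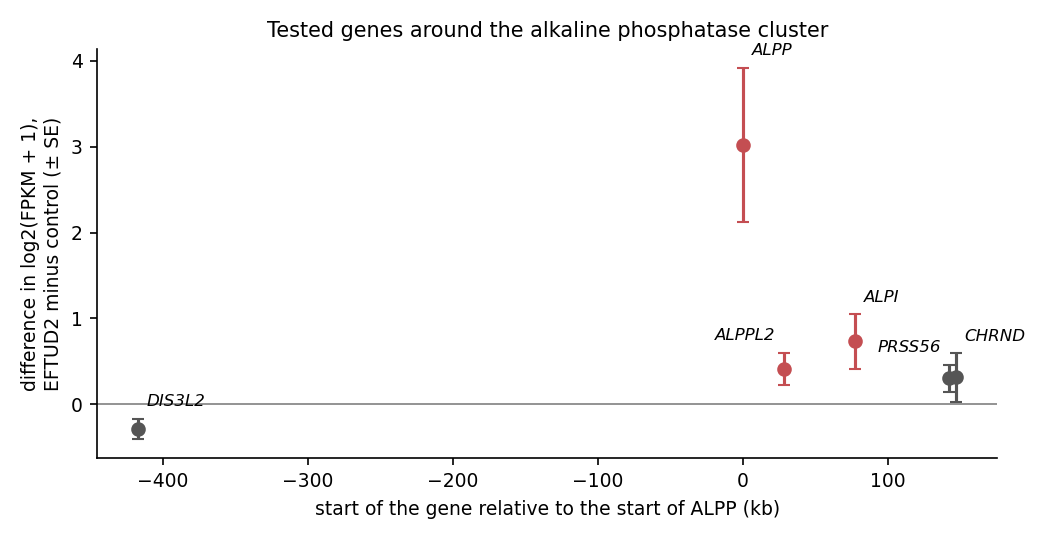
Differences between EFTUD2 and control libraries, on the log2(FPKM + 1) scale with standard errors, for the tested genes of the ALPP cluster, placed by distance in kb from the ALPP start, with alkaline phosphatases in red. ALPP stands at 3.02, ALPI at 0.73 and ALPPL2 at 0.41, while DIS3L2, PRSS56 and CHRND lie between -0.29 and 0.31.

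The genes that an alkaline phosphatase depends on were looked at next, in lists chosen with earlier results of these data known. Over 15 lists, 187 genes were listed, 183 were in the table and 119 were tested. Of these 0 had an adjusted p under 0.05 in limma, and 20 had an unadjusted p under 0.05. Beside this, 4.4% of the 17222 genes tested were higher and 7.9% lower at an unadjusted p under 0.05 in limma. A listed gene with a control mean below 0.1 FPKM entered the fit only if its mean was higher with EFTUD2. The median difference over all genes tested was -0.07, and 37.3% of them were higher. All 30 genes for making and attaching the GPI anchor were expressed, with 7 higher and 23 lower by fitted difference and a median of -0.12. DPM1, the catalytic subunit of dolichol-phosphate mannose synthase, was the 1 of them with an unadjusted p under 0.05 (difference -0.35, standard error 0.13, adjusted p = 0.402 from limma, named after its values were seen). Their summed level was 493 to 523 FPKM in the controls and 431 to 492 FPKM with EFTUD2, so the anchor machinery was not near 0 in any library.

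The 3 zinc transporters that load alkaline phosphatases in the secretory pathway, SLC30A5, SLC30A6 and SLC30A7, had a median difference of -0.15. SLC30A6 was the largest of these at -0.45 (standard error 0.19, adjusted p = 0.402 from limma). Of 10 tested genes for phosphate and pyrophosphate the median was -0.05, and NT5E, the ectoenzyme that turns AMP into adenosine and is GPI-anchored too, had the largest difference. It had 21.23, 10.87 and 14.99 FPKM across the controls, against 8.86, 7.8 and 11.08 FPKM with EFTUD2 (difference -0.67, standard error 0.25, adjusted p = 0.402 from limma), with groups that just overlapped. The 5 genes of vitamin B6 metabolism had a median of 0.07, the 4 tested acid phosphatases one of -0.29, and the 9 tested proteins of the bile canaliculus, where ALPL is found in liver, one of -0.02. NT5E and PLPBP, which binds pyridoxal phosphate, were the only genes of these phosphate, vitamin B6, acid phosphatase and canalicular lists with an unadjusted p under 0.05.

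**Figure D5:**
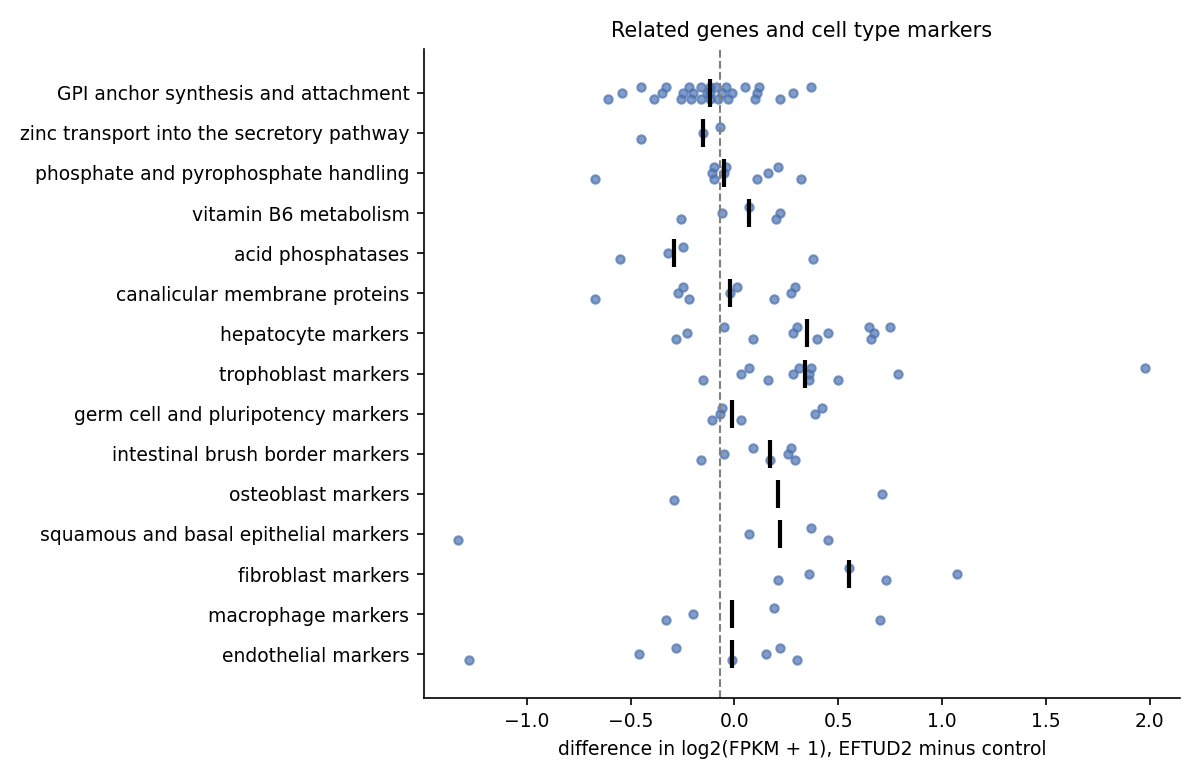
Differences between EFTUD2 and control libraries on the log2(FPKM + 1) scale for the tested genes of the 15 related lists. Each point is a gene, black ticks are list medians and the dashed line is the median of all genes tested, -0.07.

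Markers of the tissues that normally make each form ranged from 0 to well expressed. Of the 26 trophoblast markers in the table, 12 were never above 0.1 FPKM, VGLL1 was at 0 in every library and GATA3 at 0.05 FPKM or less. Of the 12 tested, 11 were higher and 1 lower by fitted difference, with a median of 0.34. PSG4, PAPPA, XAGE2, TFAP2A and INSL4 among them had control means below 0.1 FPKM and entered the fit only through the EFTUD2 libraries. Their direction was thus set by the rule for testing, and nothing is read from the count. The summed level of all 26 was 13.0 to 22.4 FPKM in the controls and 20.0 to 30.1 FPKM with EFTUD2. Most of the control sum was PGF, with 16.79, 8.64 and 10.71 FPKM across the controls, against 9.18, 8.86 and 13.51 FPKM with EFTUD2. PGF was the 1 tested marker that was lower (difference -0.15, standard error 0.26, adjusted p = 0.778 from limma). Trophoblast markers with an unadjusted p under 0.05 were TFAP2A, CYP19A1 (aromatase, difference 0.79) and PAPPA (0.31), all with an adjusted p of 0.402 from limma. INSL4, a placental hormone, had at most 0.04 FPKM in a control and 0.43, 1.07 and 0 FPKM across EFTUD2 replicates 1 to 3. PSG4, a pregnancy-specific glycoprotein, was at 0.24, 0.79 and 0 FPKM against 0.02 FPKM or less. The order of libraries differed between trophoblast markers. CYP19A1 was highest in replicate 3, with 3.51, 6.08 and 9.55 FPKM across EFTUD2 replicates 1 to 3, as was KISS1 with 0.28, 0.14 and 1.21 FPKM, while PAPPA was highest in replicate 2 and had 0.27, 0.5 and 0.14 FPKM.

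For the germ cell form, 8 of 16 germ cell and pluripotency markers were never above 0.1 FPKM and 5 were at 0 in every library (KIT, DPPA3, DPPA4, DAZL and UTF1). The 6 tested had a median difference of -0.01, with 3 higher and 3 lower by fitted difference. Those lower were POU5F1 (-0.07), SALL4 (-0.11) and TDGF1 (-0.06), each with groups that overlapped. Over all 16, the sum was 3.14 to 6.96 FPKM in the controls and 4.81 to 5.84 FPKM with EFTUD2. For PRAME and PRDM1, which were among the 6 tested, and for SOX17, the EFTUD2 libraries lay above the controls in the library order of ALPP. PRAME, a tumor antigen also made in testis, had 0.29, 0.12 and 0.13 FPKM across the controls, against 0.59, 0.87 and 0.32 FPKM with EFTUD2 (difference 0.42, adjusted p = 0.402 from limma). PRDM1 had at most 0.02 FPKM in a control and 0.31, 0.71 and 0.04 FPKM with EFTUD2 (adjusted p = 0.403 from limma), and SOX17, too low for a test, had 0 and 0.08, 0.13 and 0.01 FPKM. PRDM1 entered the fit only through the EFTUD2 libraries, so nothing is read from its direction. Among 16 intestinal markers, 6 were never above 0.1 FPKM and sucrase-isomaltase (SI) was at 0 throughout. VIL1, the brush border protein villin, was at 107.27 to 127.78 FPKM in the controls and 102.24 to 114.84 FPKM with EFTUD2, and the 7 tested had a median of 0.17. The sum over the intestinal list was 114 to 133 FPKM in the controls and 111 to 120 FPKM with EFTUD2. CDX2, a transcription factor of the intestine, had 0.02 to 0.04 FPKM with EFTUD2 against 0.08 to 0.2 FPKM in the controls, too low for a test. Of 12 osteoblast markers, 8 were never above 0.1 FPKM, and SP7 and COL1A2 were at 0 throughout. COL1A1, a chain of type I collagen, had 0.15, 0.09 and 0.1 FPKM across the controls, against 0.78, 2.05 and 0.11 FPKM with EFTUD2 (difference 0.71, standard error 0.33, adjusted p = 0.413 from limma), with groups that overlapped.

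Hepatocyte markers were high in all libraries, with sums of 10250 to 14566 FPKM in the controls and 13973 to 19382 FPKM with EFTUD2, and a median difference of 0.35 over 12 genes. Of other cell types, the squamous list had 4 tested genes with a median of 0.22, and KRT5 was at 0. The sum over that whole list was 37.2 to 54.5 FPKM in the controls and 30.6 to 65.0 FPKM with EFTUD2. S100A2 in it had the lowest adjusted p of all lists, 0.207 from limma, with a difference of -1.33. KRT14, a keratin of basal epithelium, had at most 0.01 FPKM in a control and 0.29, 0.83 and 0.09 FPKM with EFTUD2 (difference 0.45, adjusted p = 0.402 from limma). KRT16 had at most 0.02 FPKM in a control and 0.17, 0.9 and 0 FPKM with EFTUD2, so its groups overlapped (adjusted p = 0.457 from limma). KRT14 and KRT16 entered the fit only through the EFTUD2 libraries, so nothing is read from their direction or from the median of the squamous list. All 5 tested fibroblast genes were higher by fitted difference, with a median of 0.55, and the sum over the list was 0.680 to 1.78 FPKM in the controls and 2.88 to 7.40 FPKM with EFTUD2. COL3A1, COL5A1 and LUM among them had control means of 0.01 FPKM or less. These entered the fit only through the EFTUD2 libraries, so nothing is read from their direction. COL5A1 had 1.07, 3.18 and 0.11 FPKM across EFTUD2 replicates 1 to 3 against 0.01 FPKM in each control, the same order of libraries as ALPP, whereas DCN, THY1 and PDGFRA stayed at 0.04 FPKM or less. Sums over the whole macrophage list were 20.0 to 31.9 FPKM in the controls and 27.8 to 36.0 FPKM with EFTUD2, with TYROBP at 0. Most of that sum was CD68, with 16.71, 30.89 and 26.75 FPKM across the controls, against 26.13, 33.42 and 24.04 FPKM with EFTUD2. The 4 tested macrophage genes had a median of -0.01. By fitted difference ITGAM (-0.33) and AIF1 (-0.20) were lower, and CD68 (0.19) and CD14 were higher. CD14 had 0.86, 0.6 and 1.03 FPKM across the controls, against 1.41, 2.06 and 2.51 FPKM with EFTUD2 (difference 0.70, adjusted p = 0.401 from limma). The 7 tested endothelial genes had a median of -0.01. The sum over the whole endothelial list was 18.5 to 20.9 FPKM in the controls and 6.73 to 12.9 FPKM with EFTUD2. Most of that sum was ESAM, with 14.46, 15.88 and 15.68 FPKM across the controls, against 8.2, 5.97 and 3.75 FPKM with EFTUD2 (difference -1.28, adjusted p = 0.268 from limma). CDH5 and VWF were at higher levels with EFTUD2 without overlap, by 0.22 and 0.30 (adjusted p = 0.402 from limma for both). CDH5, with a control mean of 0.0700 FPKM, entered the fit only through the EFTUD2 libraries, so nothing is read from its direction. The part of these cell types in the level of ALPP was not tested.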

How the data were processed

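RNA of 6 Hep G2 libraries, 3 control and 3 EFTUD2, was selected for poly-A and sequenced on BGISEQ-500 by the authors. The authors deposited FPKM per gene and library, rounded to 2 decimals. The submitters' processing notes name HISAT2, Bowtie2, RSEM, DESeq2 and hg38, without roles. Read length and annotation are not given in the sources used here. Depth is unknown, as low values showed no common step between libraries (largest share of genes at 1 ratio 1.97%). Groups and replicate numbers came from the labels.

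From the deposited FPKM, log2(FPKM + 1) was fitted for 17222 genes that averaged 0.1 FPKM or more, using limma 3.58.1 (lmFit and eBayes with trend, Benjamini-Hochberg) in R 4.3.3. The code was tested on simulated data first. Symbols were matched to RefSeq for 18449 of 18762 Entrez gene numbers, and 26 symbols stored as dates were restored. An exact permutation test of 3 against 3 libraries cannot go below p = 0.1 and was not used. Further steps ran in Python 3.11.15 with pandas 2.3.3, biopython 1.88 and matplotlib 3.10.9.

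Members, lists and tests were chosen with earlier results of these data known. The text names the 4 members, EFTUD2, the 10 genes most like ALPP, those most like ALPL, and the neighboring genes. From each list it names some of the 3 genes with the largest difference among those reaching 1 FPKM and, for markers, of the 3 with the highest level. Other genes, such as markers at 0 and those with an unadjusted p under 0.05, were named after their values were seen. The lists were GPI anchor, zinc transport, phosphate and pyrophosphate, vitamin B6, acid phosphatases, canalicular proteins, and markers of hepatocytes, trophoblast, germ cells, intestine, osteoblasts, squamous epithelium, fibroblasts, macrophages and endothelium. Sequences came from RefSeq (GRCh38.p14) and GENCODE 29, and all 4 members matched. Protein sequences were not used here, and a few genes that this rule names are not reported here. Alternatives were other pseudocounts, filters, scalings, robust fitting, array weights, a replicate block and each library left out.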

Additional observations from a re-analysis of the deposited data

How the results depend on the processing

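The direction of all 4 alkaline phosphatase differences was the same under the alternatives reported for them, which were other pseudocounts, both scalings, the replicate block and each library left out. For filters, robust fitting and array weights, only EFTUD2 and the counts of genes called are reported. The size of the 4 differences followed the pseudocount: with 0.1 and 0.01 in place of 1, the log2 difference was 5.66 and 7.41 for ALPP, 1.65 and 2.94 for ALPPL2, 2.3 and 3.63 for ALPI, and 0.53 and 0.90 for ALPL. By construction a smaller pseudocount gives low values more weight. Leaving out each library in turn gave 2.10 to 4.11 for ALPP, 0.18 to 0.57 for ALPPL2, 0.33 to 1.0 for ALPI and 0.04 to 0.18 for ALPL, lowest without EFTUD2 replicate 2 and highest without EFTUD2 replicate 3. EFTUD2 lay at 1.07 to 1.26 in these fits. It passed the threshold with array weights (1.14, adjusted p = 0.00693 from limma) and without EFTUD2 replicate 3 (1.14, adjusted p = 0.0314), and its adjusted p ranged from 0.00693 to 0.531 over 15 alternatives. Over all genes, limma called 1246 (916 higher, 330 lower) with array weights, 1 without a filter (BGI_novel_G001005), and 0 to 131 when 1 library was left out, with 131 (119 higher, 12 lower) without EFTUD2 replicate 3. Of the related genes, array weights called 23 and the fits without 1 library 0 to 4, with XAGE2, ESAM, S100A2 and TFAP2A without EFTUD2 replicate 3. The cause was not tested. Of the 10 genes most like ALPP, 2 remained with a pseudocount of 0.01.

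With the replicate number as a block, the differences were the same by construction (ALPP 3.02, standard error 0.73), and 0 genes were called. The adjusted p of EFTUD2 was 0.359. Same-numbered libraries deviated from their group means with correlations over genes of -0.30, 0.35 and -0.09. With so few libraries per group, the deviations within a group are tied to one another. These correlations therefore cannot show whether same-numbered libraries were prepared together. Scaling moved the median difference of all genes from -0.07 to 0.00 at most. The unknown depth limits the control values, which, apart from ALPL in control replicate 2, lie within a few rounding steps of 0.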
